A study of Homo sapiens with 6 samples.

Results

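A549, a human lung adenocarcinoma cell line, was compared with H460 and H1299, the other non-small cell lung cancer (NSCLC) lines of the study. The part described here consisted of the 2 A549 libraries among the 6 libraries of the series, set against the 2 libraries of H460 and the 2 of H1299. Each line gave 1 library of non-treated cells, called control below, and 1 library of cells transfected with si-MALAT1, a small interfering RNA against the long non-coding RNA MALAT1. The members were chosen by the cell line on the sample labels, and no measured value was used. The cells were obtained from a cell bank and grown in RPMI-1640 or DMEM with serum, and which medium went with which line is not given in the sources used here. The methods also describe cells given a control siRNA, whereas the labels call the sequenced controls non-treated, so transfection itself and the loss of MALAT1 cannot be told apart. Each group was 1 library, and A549 is 1 line set against 2, so the p-values measure the spread among these libraries and not the spread among adenocarcinomas.

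A549 is widely used as a model of the alveolar epithelium and of lung adenocarcinoma. Background knowledge of the line includes loss of function of KEAP1, the adaptor that marks the transcription factor NRF2 for degradation, which leaves the antioxidant and detoxifying genes under NRF2 active, and H460 shares this feature. Lung epithelium descends from the foregut, as do liver, pancreas, and stomach, and some lung adenocarcinomas express regulators of those organs, such as HNF4A, in place of the lung regulator NKX2-1. In the liver, HNF4A and FOXA2 act together on genes of secreted plasma proteins and of drug metabolism.

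The 2 A549 libraries had the fewest reads on genes, 42506818 and 46015222, against 60870796 to 68515992 in the other 4, so depth and cell line cannot be told apart, and the counts were also compared after thinning to the smallest library. MALAT1 was checked in each library first. A549 gave 93747 MALAT1 reads untreated and 14447 with the siRNA, H460 gave 231045 and 43858, and H1299 gave 407551 and 47935. The siRNA library was the lower one in each line, which fits its label, and at the same treatment A549 was lower than the other lines after normalization.

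The first comparison asked which genes set A549 apart from both other lines whatever the siRNA. In edgeR's quasi-likelihood test of the 2 A549 libraries against the other 4, with treatment as a covariate, 0 of 21771 genes tested (0%) passed a Benjamini-Hochberg adjusted p of 0.05. The smallest adjusted p was 0.0532, shared by 27 genes. An unadjusted p under 0.05 was reached by 3170 genes. The spread in this test includes the difference between H460 and H1299, and the 2 libraries of a line enter it as separate observations. DESeq2's Wald test on the same design called 1404 genes higher (6.58% of the genes with an adjusted p) and 1962 lower (9.19%). With the control libraries alone, 1 A549 library against 2, edgeR called 0 of 21942 genes (0%), with 616 under an unadjusted p of 0.05. With the si-MALAT1 libraries alone edgeR called 0 of 21866 genes (0%), with 620 under an unadjusted p of 0.05. DESeq2 made calls in both of these contrasts, given with the alternatives at the end.

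A second test, chosen after these values were seen, compared A549 with each line separately. It was an edgeR fit on cell line means with treatment as a covariate, which left 2 residual degrees of freedom. The covariate removes an siRNA change shared by the lines. The spread in this fit is therefore how far the siRNA change of each line departs from the shared one. The 2 libraries of a line were differently treated cultures, so this is not a spread between replicates. A gene is called higher or lower below where the adjusted p was under 0.05 against H460 and against H1299, in the same direction. By this rule 1834 genes were higher in A549 than in both lines (8.42% of the genes tested) and 1635 were lower (7.51%). The same rule called 2323 genes higher and 1963 lower in H460 than in the other two lines, and 3509 and 3088 in H1299, so A549 had fewer such genes than either. Without the A549 control library the counts fell to 805 higher and 778 lower, and without the A549 si-MALAT1 library to 867 and 830. In both A549 libraries 3964 genes (18.2%) lay above the other 4 libraries and 3630 (16.7%) below them, whatever the size of the gap. The median log2 fold change over the genes tested was -0.17.

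Among called genes with a mean of at least 50 reads and no overlap between A549 and the other libraries, the 20 with the widest gap in each direction are described. At the top was CYP24A1 (Gene ID 1591), the mitochondrial enzyme that inactivates vitamin D, on the minus strand of chromosome 20 of GRCh38 from 54145731 to 54174032. It had 113916 reads in the A549 control and 128734 after si-MALAT1, against 58 and 37 in H460 and 105 and 155 in H1299. The 2 A549 libraries were alike and far above the other 4. The log2 fold change was 10.96 ± 0.74 (approximate SE, derived from the test statistic) over the 6 libraries (edgeR adjusted p = 0.0532) and 11.10 in the controls alone. VDR, the vitamin D receptor, which was named after its values were seen, was lower in A549, with 85 and 70 reads against 408 to 843.

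DKK1 (Gene ID 22943), a secreted inhibitor of Wnt signalling on chromosome 10, had 63763 and 65186 reads in A549, 367 and 209 in H460, and 666 and 301 in H1299. Its log2 fold change was 8.01 ± 0.38 (adjusted p = 0.0532) and 7.60 in the controls alone. CDH1 (Gene ID 999), the epithelial adhesion protein E-cadherin on chromosome 16, had 4693 and 7373 reads in A549 and between 2 and 13 in the other libraries. Both A549 libraries lay above the others, with a log2 fold change of 9.75 ± 0.81 (adjusted p = 0.0646) and 9.81 in the controls alone. NTS, the gene of the peptide neurotensin, had 9631 and 11721 reads in A549 and 7 to 34 elsewhere. The gene of its receptor NTSR1, named after its values were seen, had no read in A549 and 262 to 3756 in the other 4 libraries.

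Several of the 20 had no read outside A549. ST6GAL2, a sialyltransferase, had 6977 and 10375 reads in A549 and none in the other 4 libraries, at least 16227-fold higher in normalized mean when the others were set at a floor of 3 reads over the group. GPX2 (Gene ID 2877), a glutathione peroxidase of the gut epithelium, had 5694 and 11662 reads in A549 and none elsewhere, at least 16092-fold higher. CLDN2, a pore-forming claudin of tight junctions, had 3291 and 5586 reads and none elsewhere, at least 8271-fold higher. TM4SF4, a tetraspanin-like membrane protein of liver and gut, had 12624 and 17159 reads in A549 and 3 reads in the H460 control, a ratio of 26414 with a 95% exact interval from 9606 to 136140 that covers counting error only. The other genes of the 20 were HAVCR1, NTRK3, FGA, UPK1B, SLC22A3, HPGD, GPRIN2, DAPK1, HNF4A, FGB, GCNT3, and ARSL. Of these, NTRK3, a neurotrophin receptor, had 7275 and 6800 reads in A549 and at most 7 elsewhere, and HPGD, which degrades prostaglandins, had 7996 and 9981 against at most 34.

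On the low side MEF2C (Gene ID 4208), a transcription factor of muscle, neurons, and blood vessels on chromosome 5, had no read in A549. It had 4186 and 5634 reads in H460 and 6563 and 11668 in H1299, so A549 was at least 3283-fold lower at the same floor. ZNF83 (Gene ID 55769), a zinc finger gene of chromosome 19, had no read in A549 and 1873 to 2963 in the others, at least 1090-fold lower. NIBAN1, a stress response gene, had 25 and 45 reads in A549, 7125 and 5678 in H460, and 6290 and 7369 in H1299. Its log2 fold change was -7.11 ± 0.38 (adjusted p = 0.0532) and -7.45 in the controls alone. MMP1, an interstitial collagenase, had 27 and 21 reads in A549 and 1928 to 11120 elsewhere, and OXCT1, an enzyme of ketone body use, had 10 and 42 against 2503 to 6076. The remaining genes were MMP16, MAGEA1, H2AC8, H2BC8, H2BC9, NFATC4, PARP8, H2AC7, UGT8, CADPS2, TRPV2, PCDH7, RTN1, HMCN1, and HS3ST3A1. No A549 library had more than 45 reads on any of the 20 low genes.

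**Figure D1:**
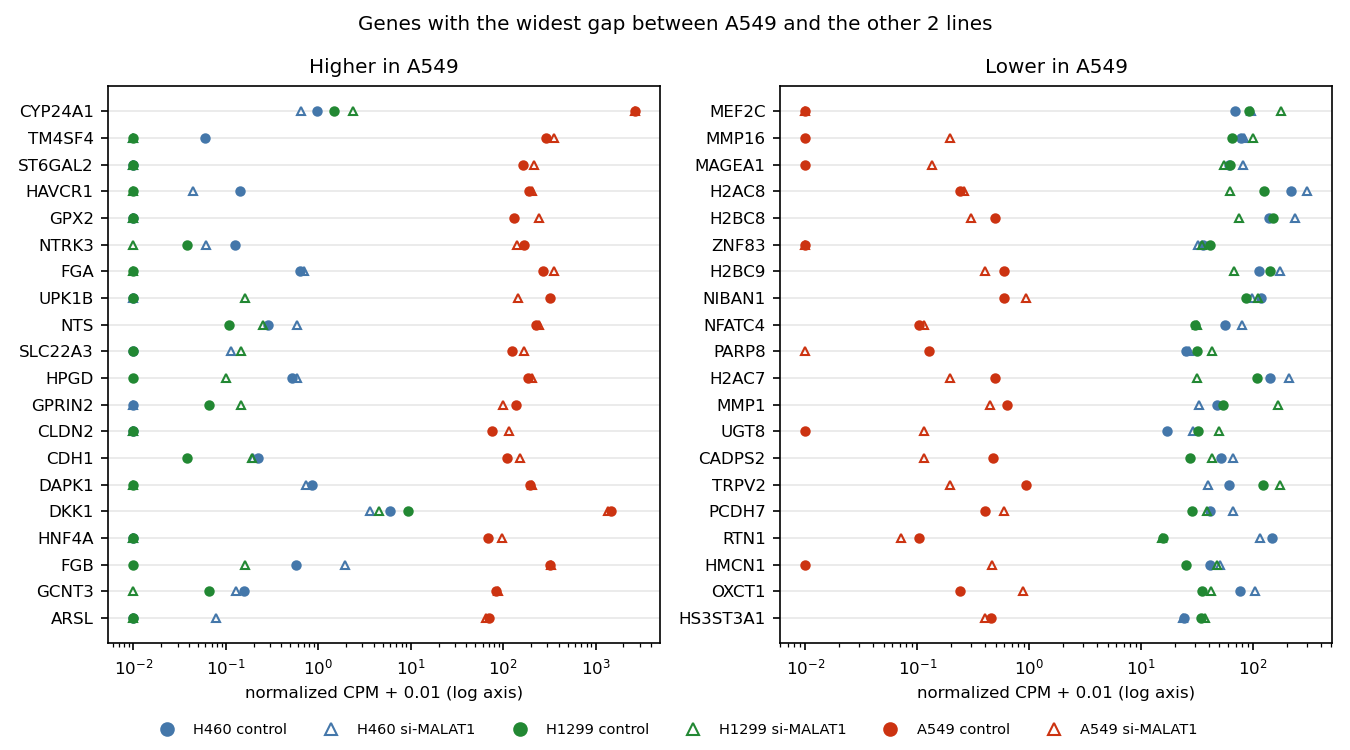
Normalized CPM (reads scaled to library size, horizontal log axis, with 0.01 added so that a library without a read sits at 0.01) of the 20 genes with the widest gap in each direction, 1 point per library. The A549 points lie to the right of the other 4 in the left panel and to their left in the right panel, and MEF2C and ZNF83 have no read in either A549 library.

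Liver regulators and liver products are described first. In all, 460 genes in 17 lists were followed, of which 360 passed the filter on low counts. A gene read in A549 alone could pass this filter and a gene read nowhere could not, so list shares and medians partly follow from it. The lists were chosen with earlier results of these data known. Their shares stand beside 8.42% higher and 7.51% lower over all genes tested. Of 21 tested transcription factors of foregut and liver, 8 were higher in A549 than in both lines and 2 were lower, 38.1% and 9.52%. HNF4A (Gene ID 3172), a nuclear receptor that directs liver and gut epithelium, on the plus strand of chromosome 20 from 44355699 to 44434596, had 2948 reads in the A549 control and 4626 after si-MALAT1 and none in the other 4 libraries. A549 was at least 7072-fold higher.

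FOXA2, a pioneer factor of endoderm, had 1070 and 1510 reads in A549 against 0 to 22, with a log2 fold change of 7.37 ± 1.45 (adjusted p = 0.169) and 7.32 in the controls alone. NR5A2, a nuclear receptor of liver and pancreas, had 3736 and 3246 reads in A549, 0 and 2 in H460, and 171 and 86 in H1299. ONECUT2 was higher with a smaller gap, at 723 and 1103 reads against 169 to 289. GATA4 and CEBPD were also called. SOX9, a factor of progenitors and ducts, was lower, with 301 and 585 reads in A549 against 1706 to 4098, a log2 fold change of -2.24 ± 0.44 (adjusted p = 0.170), and PROX1 had no read in A549 and 39 to 64 elsewhere. FOXA1, which is close to FOXA2 in sequence, lay between the lines, with 445 and 647 reads in A549, 1766 and 2195 in H460, and 149 and 121 in H1299.

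Of 54 genes of secreted liver proteins, 37 passed the filter on low counts. Of these, 19 were higher in A549 than in both lines (51.4%, against 8.42% of all genes tested) and 0 were lower. Members without a read outside A549, among them APOH, FGL1, and TTR, passed the filter through A549 alone. The share and the median of the list partly follow from that. The median log2 fold change of the 37 was 3.87, or 3.27 with genes lacking reads set at their bound, against -0.17 over the genes tested. Without the A549 si-MALAT1 library 12 were called. Fibrinogen is made of 3 chains, and their genes lie side by side on chromosome 4. FGA had 11473 and 17311 reads in A549, 38 and 40 in H460, and none in H1299. FGB had 13748 and 15918 in A549, 34 and 112 in H460, and 0 and 10 in H1299. FGG had 8715 and 9335 in A549, 917 and 1571 in H460, and 0 and 9 in H1299. All 3 chains were highest in both A549 libraries, while H460 carried FGG at a level that FGA and FGB did not have, 11.3 TPM (abundance scaled for gene length and depth) on average against 0.177 and 0.339. In A549 the means were 168 TPM for FGA, 110 for FGB, and 129 for FGG.

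APOH, a phospholipid-binding plasma protein, had 1397 and 3513 reads in A549 and none elsewhere, at least 4530-fold higher. C5, a component of the complement cascade, had 15280 and 19268 reads in A549, 54 and 58 in H460, and 937 and 847 in H1299. Its log2 fold change was 5.77 ± 1.44 (adjusted p = 0.229). CP, the copper carrier ceruloplasmin, had 25796 and 31550 in A549, 780 and 975 in H460, and 6 and 0 in H1299. Coagulation factor genes F2, F5, and F7 were called, as were ITIH2, AHSG, C4BPA, TTR, and AMBP. These were low in A549, with means from 0.889 TPM for F5 to 4.7 for AMBP, against 176 for CP. With a filter at a mean of at least 50 reads, 14 genes of the list were called higher. The albumin gene and the genes of the apolipoproteins A1 and B did not pass the filter, so the products seen were part of the liver list and not its most typical members. HP, the haptoglobin gene, was read in A549 alone but with 7 and 11 reads, and was not called.

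**Figure D2:**
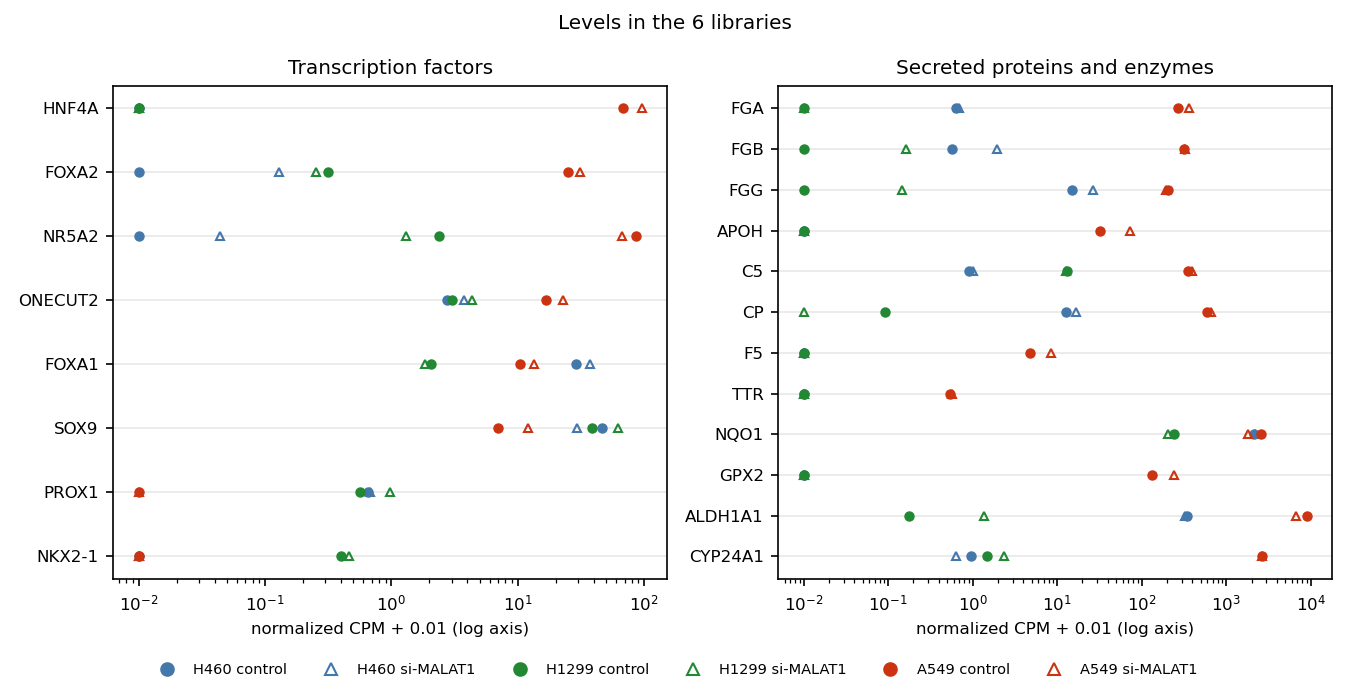
Normalized CPM (log axis, 0.01 added) of transcription factors (left) and of secreted proteins and enzymes (right) in the 6 libraries. HNF4A is at 0.01, that is without a read, outside A549, NQO1 is alike in A549 and H460 and lower in H1299, and NKX2-1 is without a read in A549 and H460.

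Promoters were compared by their letters, using the RefSeq window from 250 bases before to 50 after a gene's start on GRCh38.p14, which matched 14737 of the genes tested. The letters CAAAGTCCA, known from HNF4 sites, were looked for on both strands. They were found in 11 of 1317 promoters of genes higher in A549 (0.835%), 2 of 1221 of genes lower (0.164%), 42 of all 14737 (0.285%), and in 0.36% of the 27195 promoters of the whole table. The promoters of AHSG, which encodes a plasma protein of the liver, and MUC13, which encodes a membrane mucin of the gut, are shown as examples of called genes that carry them. AHSG is printed from 200 to 61 bases before the start and MUC13 from 140 bases before it to the base before it, with the match in capitals as it reads on the opposite strand.
AHSG, chr3:186612860-186612999, plus strand: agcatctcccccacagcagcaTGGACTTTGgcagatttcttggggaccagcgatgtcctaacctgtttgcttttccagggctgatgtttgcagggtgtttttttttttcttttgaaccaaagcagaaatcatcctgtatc
MUC13, chr3:124934752-124934891, minus strand: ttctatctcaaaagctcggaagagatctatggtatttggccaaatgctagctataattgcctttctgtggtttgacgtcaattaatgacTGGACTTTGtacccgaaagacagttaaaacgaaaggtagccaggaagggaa

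TGTTTAC, known from FOXA sites, was in 3.19% of the promoters of higher genes, 1.88% of those of lower genes, and 2.55% of all tested. TGACNNNGC, known from NRF2 sites, was in 13.1%, 15.2%, and 14.6%, and TGAGTCA, known from AP-1, in 3.26%, 3.69%, and 3.54%. These shares are descriptions without a test, and a match is not a bound site. Promoters rich in CpG, with an observed over expected ratio above 0.6, made up 65.2% of those of the higher genes, 75.3% of those of the lower genes, and 74.5% of all.

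Detoxifying enzymes formed the next group. Of 46 tested genes of drug and retinoid metabolism, 25 were higher in A549 than in both lines (54.3%) and 3 were lower (6.52%), with a median log2 fold change of 2.26, or 2.24 at the bounds. Without the A549 si-MALAT1 library 15 were called higher. ALDH1A1 (Gene ID 216), which oxidizes retinal to retinoic acid, had 388088 reads in the A549 control and 325794 after si-MALAT1, 20848 and 19089 in H460, and 12 and 89 in H1299. It made up 0.913% and 0.708% of the A549 reads and ranked 9 and 11 among the genes of these libraries by TPM. The log2 fold change was 5.55 ± 2.77 (adjusted p = 0.437) and 5.72 in the controls alone, and H460 and H1299 were themselves far apart. ALDH2 had 5744 and 6376 reads against 310 to 1200, and NNMT, which methylates nicotinamide, had 4590 and 3600 against 0 to 236.

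The UGT1A genes, which conjugate drugs and bilirubin, were called higher in 8 of 8 cases, but they share their last exons, so reads can be split among them and the 8 are not independent. UGT1A1 had 218 and 532 reads in A549 and none elsewhere, at least 692-fold higher, and UGT1A6 had 504 and 1265 against 0 to 44. ADH4, ADH6, CYP3A7, UGT2A3, and UGT2B11 had reads in A549 alone, all under 500 per library. RARRES1, a retinoid-responsive gene, had 81 and 201 reads in A549 and 3 in the H460 control, a ratio of 246 with an interval from 90.0 to 1297. The 3 lower genes were CRABP2, a retinoic acid carrier with no read in A549 and 70 to 725 elsewhere, and the glutathione transferases GSTM2 and GSTM3.

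NRF2 targets separated H1299 from the other 2 lines more than they separated A549. Of 40 such genes 16 were higher in A549 than in both lines (40%) and 0 were lower (0%). However, 39 were higher than in H1299, while 16 were higher than in H460 and 7 were lower than in H460. The median log2 fold change was 0.01 against H460 and 3.12 against H1299. NQO1, a quinone reductase often read as a marker of NRF2 activity, had 112294 and 87101 reads in A549, 131207 and 127626 in H460, and 17378 and 13587 in H1299. A549 and H460 were alike in log2 fold change, 0.00, with A549 at 3.30 above H1299. The list count rested on both A549 libraries, since 9 genes were called without the A549 control and 10 without the A549 si-MALAT1 library. Without the H460 control, 11 were called.

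Some members of this list stood apart in A549. HMOX1, which degrades heme, had 3403 and 4118 reads in A549, 402 and 766 in H460, and 544 and 1006 in H1299, and its log2 fold change was 3.06 ± 0.28 (adjusted p = 0.0668). GPX2, shown above, had no read outside A549. The aldo-keto reductases AKR1B10, AKR1B15, AKR1C2, AKR1C3, and AKR1C4 were called higher, and AKR1C1 was not, with 36940 and 36104 reads in A549 and 55868 and 68135 in H460. AKR1B10, which reduces retinal and other aldehydes, had 188600 and 148925 reads in A549, 85180 and 74343 in H460, and 23 and 20 in H1299. The AKR1C genes are near copies of each other and so are AKR1B10 and AKR1B15, so the split of reads between them is uncertain. KEAP1 and NFE2L2, the gene of NRF2, differed little, with log2 fold changes of -0.04 ± 0.17 and -0.03 ± 0.32.

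**Figure D3:**
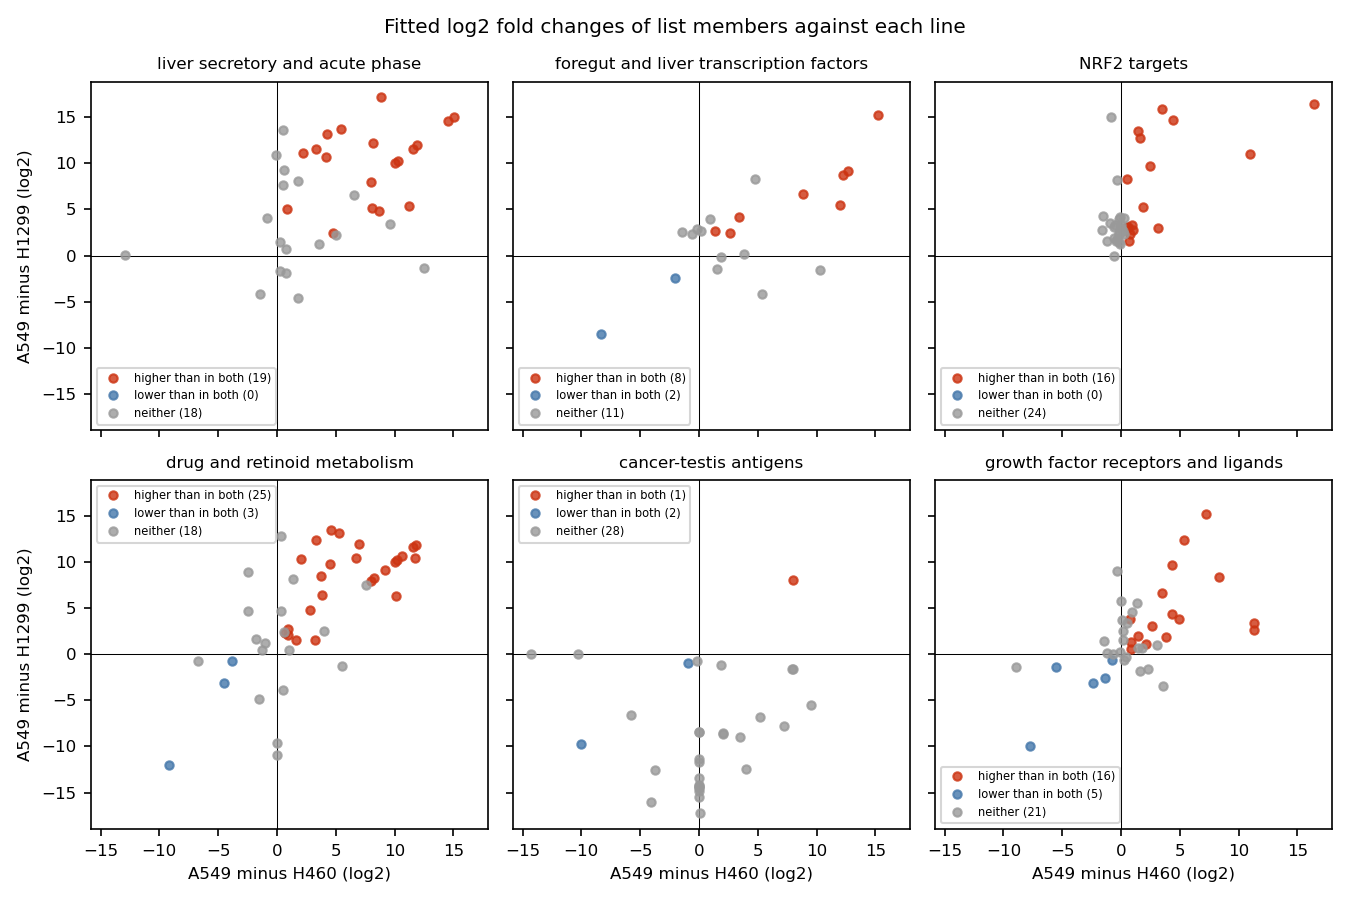
Fitted log2 fold change of A549 against H460 (horizontal) and against H1299 (vertical) for the tested members of 6 gene lists, with called members in colour and their number in the legend. Liver and drug metabolism genes lie mostly in the upper right, NRF2 targets in a column near 0 against H460, and cancer-testis antigens mostly below 0 against H1299. Fitted values of genes without reads in a line have no fixed size.

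Markers of epithelium were mixed. Of 16 tested genes of epithelium and tight junctions, 7 were higher in A549 than in both lines (43.8%, against 8.42% of all genes tested). These were CDH1, CLDN2, ELF3, EPCAM, KRT7, KRT8, and KRT18. CLDN4 and ESRP1, 2 of the 16, were lower (12.5%, against 7.51%). ESRP1 was near 0 in every line, at 0.109 TPM in H460, 0.279 in H1299, and 0 in A549 on average. ELF3, an epithelial transcription factor, had 6508 and 8505 reads in A549, 173 and 172 in H460, and none in H1299. KRT7, a keratin of glands and lung, had 44716 and 23990 reads in A549, 2376 and 1756 in H460, and at most 144 in H1299. KRT18 had 144327 and 68068 in A549 against 20233 to 29912, with a log2 fold change of 2.49 ± 0.31 (adjusted p = 0.0955). KRT19, another keratin of simple epithelium, went the other way against H460, with 44 and 121 reads in A549, 44567 and 33570 in H460, and 21 and 17 in H1299. EPCAM was called but low, with 196 and 485 reads in A549.

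Of 15 tested mesenchymal genes, 1 was higher than in both lines (6.67%) and 3 were lower (20%), against 8.42% and 7.51% over all genes tested. The share called higher was thus near the background. The median log2 fold change was -1.11. Both A549 libraries lay below the other 4 in 5 of the 15 and above them in 1, where 16.7% and 18.2% of all genes tested did so. VIM, the intermediate filament vimentin, had 33049 and 41088 reads in A549 against 84942 to 227383, a log2 fold change of -1.59 ± 0.52 (adjusted p = 0.299) and -1.67 in the controls alone. PRRX1 and SNAI2, factors of mesenchyme, had no read in A549, and each was also near 0 in 1 other line. PRRX1 averaged 0.0205 TPM in H460 and 10.2 in H1299, and SNAI2 averaged 1.53 in H460 and 0.148 in H1299. CDH2, the neural cadherin, was called higher, with 3223 and 4820 reads in A549, 192 and 219 in H460, and 3641 and 4757 in H1299, values that overlap with those of H1299 before normalization. FN1, fibronectin, lay between H460 and H1299. ZEB1 was at a log2 fold change of 0.00 ± 0.64.

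The labelled cell type was checked against lung markers. Of 16 alveolar genes 8 were tested. In A549 1 was higher (12.5%) and 2 were lower (25%) than in both lines, against 8.42% and 7.51% over all genes tested. These shares rest on 1 and 2 genes. SFTPA1, SFTPB, and SLC34A2, which mark alveolar type II cells, had no read in A549, SFTPC had 11 and 7 reads, and SFTPD had 4 and 0. NKX2-1, the regulator of lung identity, had no read in A549 or H460 and 28 and 30 in H1299. ABCA3, a lipid pump of these cells that other cells also use, had 2088 and 1824 reads in A549 against 1798 to 4140 elsewhere and was not called. NAPSA was called higher, but at 76 and 131 reads. HOPX, a marker of alveolar type I cells, had no read in A549 and 3913 and 4644 in H460. In H1299 HOPX was also near 0, at 0.0437 TPM on average against 54.4 in H460. The defining alveolar markers were thus at or near 0, while those of epithelium in general were present. Squamous and basal keratins KRT5 and KRT14 had no read in any of the 6 libraries, and the neuroendocrine factors NEUROD1 and INSM1 had none in A549. Of 7 tested squamous genes 3 were higher (42.9%), TP63, DSC3, and JAG1, and 0 were lower (0%). Of 7 tested neuroendocrine genes 1 was higher (14.3%), DDC, and 2 were lower (28.6%). TP63, the regulator of basal cells, had 47 and 304 reads in A549 against 2 to 18. DDC, which makes dopamine and serotonin, had 534 and 1210 reads in A549 and none elsewhere, at least 1613-fold higher.

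Genes of airway secretion and mucus were higher in 7 of 10 tested cases (70%) and lower in 1 (10%), against 8.42% and 7.51% over all genes tested. The median log2 fold change was 7.14, or 6.08 with genes lacking reads at their bound. MUC5AC, the mucin of goblet cells and stomach, had 5715 and 7221 reads in A549, 89 and 38 in H460, and none in H1299. The log2 fold change was 8.22 ± 2.32 (adjusted p = 0.255) and 7.51 in the controls alone. The other 6 higher genes were MUC5B, MUC13, SPDEF, TFF1, CEACAM6, and LCN2, with 31 to 183 reads per A549 library. MUC1 was lower, at 59 and 104 reads against 215 to 339. AGR2 and SLPI, the most abundant tested members in A549, were not called and were higher in H460. AGR2 averaged 221 TPM in A549, 382 in H460, and 0.0977 in H1299. SLPI averaged 12.8 TPM in A549, 34.9 in H460, and 0 in H1299. With either A549 library left out, 4 of the genes were called higher. A further 10 genes of the list, among them the secretoglobins SCGB1A1 and SCGB3A1, did not pass the filter.

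Growth factor receptors and their ligands were higher in 16 of 42 tested cases (38.1%) and lower in 5 (11.9%). FGFR4, a receptor for the bile acid hormone FGF19, had 3095 and 3342 reads in A549 against 171 to 320, and its log2 fold change was 4.35 ± 0.23 (adjusted p = 0.0532) and 4.04 in the controls alone. FGFR1 and FGFR3 were also called. MET, the receptor for hepatocyte growth factor, had 23373 and 31719 reads against 9177 to 14563, a log2 fold change of 1.66 ± 0.28 (adjusted p = 0.138). ERBB3 had 2402 and 2914 reads against 205 to 1397, while ERBB4 had none in A549 and 25 to 189 elsewhere. EREG and AREG, ligands of the EGF receptor, had 7399 and 7795 reads and 1516 and 1404 reads in A549, above 0 to 266 and 13 to 193 elsewhere. EGFR itself was not called, with 9328 and 7825 reads in A549 and 11030 and 9473 in H460. IGFBP1, a liver-made carrier of insulin-like growth factors, had 3878 and 3153 reads in A549, 44 and 21 in H460, and none in H1299. Without the A549 control 10 genes were called higher, and without the A549 si-MALAT1 library 11 were called higher and 1 lower.

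Among 26 tested tumour suppressors and oncogenes of lung cancer, 3 were higher (11.5%) and 2 were lower (7.69%), shares close to the background. SMARCA4, the ATPase of the SWI/SNF remodelling complex, had 426 and 496 reads in A549, 5162 and 4010 in H460, and 2156 and 1706 in H1299. Its log2 fold change was -2.36 ± 0.69 (adjusted p = 0.262) and -2.53 in the controls alone. MTAP, a methionine salvage enzyme next to CDKN2A on chromosome 9, had 631 and 492 reads against 3680 to 6290, a log2 fold change of -2.67 ± 0.24 (adjusted p = 0.0668). CDKN2A and CDKN2B had no read in A549 or H460. The higher genes included MYCL and CCNE1, at log2 fold changes of 1.82 ± 0.45 and 1.32 ± 0.49 (edgeR adjusted p = 0.226 and 0.339). With either A549 library left out, 0 of the list were called higher.

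Cancer-testis antigens, germline genes that tumours can express, gave little that was particular to A549. Of 31 tested, 1 was higher (3.23%) and 2 were lower (6.45%), against 8.42% and 7.51% over all genes tested. The median log2 fold change was -9.26, or -7.58 with genes lacking reads at their bound. It came with a median of 0.02 against H460 and -8.60 against H1299. MAGEA1 had 0 and 6 reads in A549 against 3636 to 4781, and MAGED1 had 2418 and 3832 against 6800 to 9862. The counts of MAGEA and GAGE genes are uncertain because the genes are near copies of each other. Reference genes were called lower in 1 of 13 cases (7.69%, near the 7.51% over all genes tested) and higher in 0 (0%). Their median log2 fold change was -0.21.

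Genes read in one state or the other were counted with a limit of 1 normalized CPM for present and 0.1 for absent, chosen after the values were seen. Present in both A549 libraries and absent in the other 4 were 146 genes, of which 108 code for proteins, and 95 of the 146 had no read in the others. Absent in A549 and present in the other 4 were 89 genes, of which 64 code for proteins, and 69 of the 89 had no read in A549. The corresponding numbers were 139 and 87 for H460 and 326 and 164 for H1299. Among genes absent from A549 were FLNC, a muscle filamin with 25949 and 20597 reads in H1299 and 130 and 137 in H460, and PRMT6, an arginine methyltransferase with 622 to 1211 reads in the others, both named after their values were seen.

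Zinc finger genes of chromosome 19 were likewise grouped after the values were seen. Of 245 tested protein-coding ZNF genes of this chromosome 62 were lower in A549 than in both lines (25.3%) and 3 were higher (1.22%), while of 247 ZNF genes of other chromosomes 36 were lower (14.6%) and 15 higher (6.07%). Of the 245 genes, 43 had no read in A549, and 15 met the limits for absence in A549 alone. The median log2 fold change of the family was -0.04 against H460 and -1.40 against H1299. ZNF83 is shown as an example of a gene without a read in A549 whose start lies in a CpG-rich stretch, with an observed over expected ratio of 0.93 over the RefSeq window. The stretch runs from 200 bases before the start to the base before it, with the 22 CpG pairs in capitals.
ZNF83, chr19:52690497-52690696, minus strand: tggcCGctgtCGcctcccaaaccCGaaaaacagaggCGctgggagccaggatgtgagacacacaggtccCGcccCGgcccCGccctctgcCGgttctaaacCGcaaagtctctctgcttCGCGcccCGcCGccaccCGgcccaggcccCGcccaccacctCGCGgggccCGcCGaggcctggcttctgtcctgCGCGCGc

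Clustered histone genes of chromosome 6 were called in both directions, 6 higher (11.8%) and 9 lower (17.6%) of 51 tested, against 8.42% and 7.51% over all genes. H2AC8 had 10 and 12 reads in A549 against 4150 to 17641, and H2BC8 had 21 and 14 against 4912 to 13947. H2BC6, named after its values were seen, had 2253 and 3079 reads in A549 against 15 to 35, with a log2 fold change of 7.31 ± 0.38 (adjusted p = 0.0532). These genes resemble each other in sequence, so the split of reads among them is uncertain.

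By chromosome, the share of tested genes called higher was largest on chromosome 20 with 103 of 587 (17.5%), then chromosome 11 with 16.1%, chromosome 10 with 13.4%, and chromosome 17 with 12.6%, against 8.42% over all chromosomes. On chromosome 17 the share called lower was 2.47%, and its median log2 fold change was 0.27. The share called lower was largest on chromosome 6 with 159 of 1180 (13.5%), then chromosome 19 with 11.7% and chromosome 5 with 11.1%, against 7.51%. On chromosome 6 the median log2 fold change was -0.67 in the main fit. The separate medians there were -0.05 against H460 and -0.93 against H1299. On chromosome 19 the median was -0.38 in the main fit, with separate medians of 0.07 and -0.64. Copy number was not measured in these libraries, and its part in these shares was not tested.

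**Figure D4:**
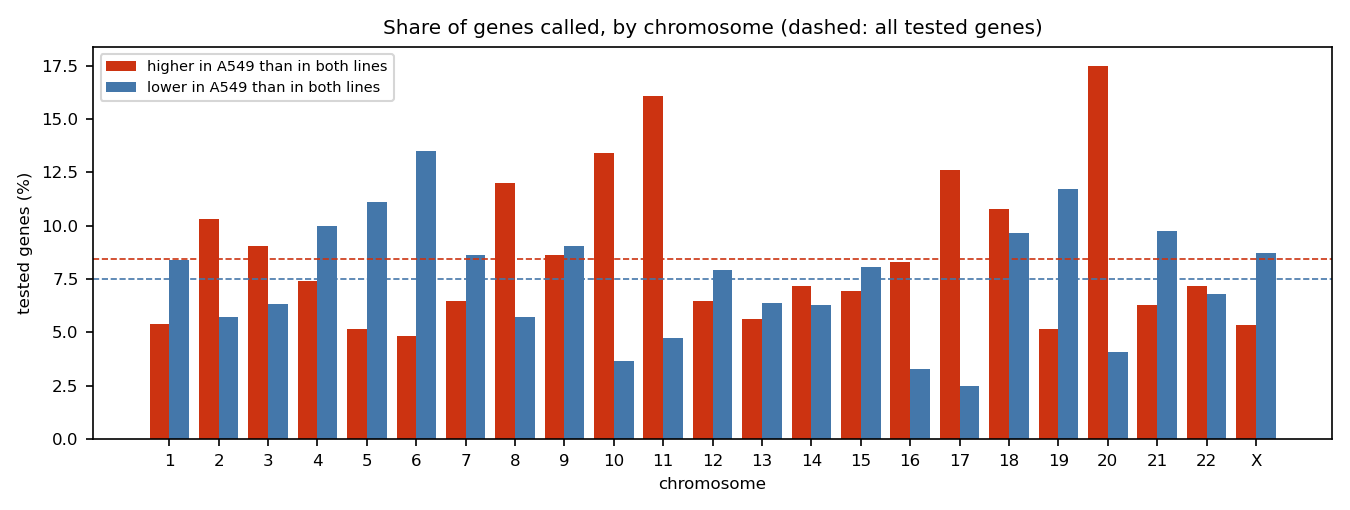
Share of tested genes (percent, vertical) called higher (red) or lower (blue) in A549 than in both other lines, by chromosome, with dashed lines at the shares over all tested genes, 8.42% and 7.51%. The highest red bars are those of chromosomes 20, 11, 10, and 17 and the highest blue bars those of chromosomes 6, 19, and 5, and other chromosomes also lie above the lines.

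The differences between the lines were compared with those between the 2 A549 libraries. The contrast among the controls and the contrast among the si-MALAT1 libraries share no library, and 1822 of the 1834 higher genes and 1635 of the 1635 lower genes had the same sign in both, which the call rule largely fixes. Of the 1834 higher genes 1722 differed by less than 2-fold between the 2 A549 libraries, as did 1594 of the 1635 lower genes. The same held for 17794 of the 18302 genes not called, so a small difference was not particular to the called genes. The median absolute log2 difference between these libraries was 0.26 for the higher genes, 0.18 for the lower genes, and 0.22 for the remaining genes tested. Some named genes moved more. TP63 had 304 reads in the si-MALAT1 library of A549 and 47 in its control. UGT2A3 had a log2 difference of 1.55 between these libraries, KRT18 of -1.25, KRT8 of -1.17, UPK1B of -1.14, and KRT7 of -1.06. With 1 library per condition these differences have no replicate check. CYP24A1 (0.01) and FGB (0.05) hardly differed between the libraries.

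**Figure D5:**
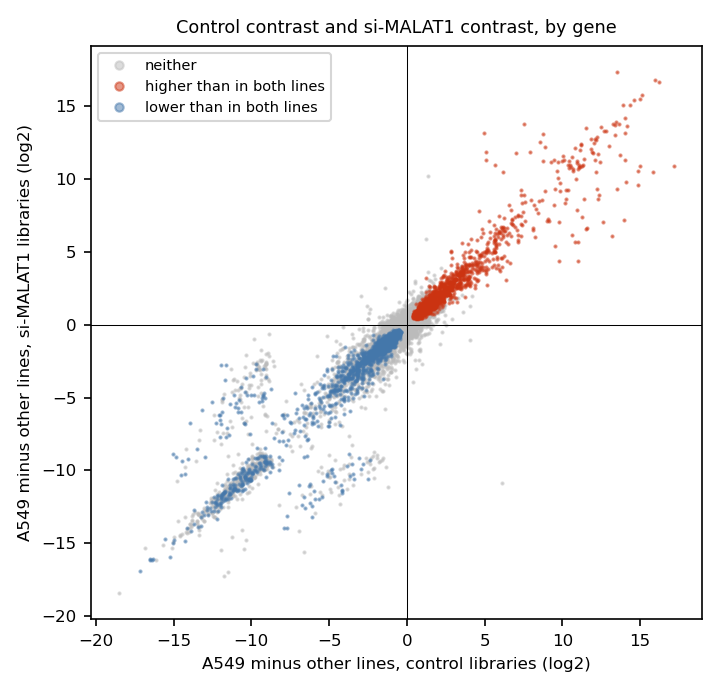
Log2 fold change of A549 against the other lines among the control libraries (horizontal) and among the si-MALAT1 libraries (vertical), 1 point per gene with a mean of at least 50 reads. Called genes lie in the upper right and lower left, and the separate streaks at the lower left are genes without reads in 1 or both A549 libraries, whose fitted values have no fixed size.

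Markers of other cell types were followed as well. Of 10 genes of immune and blood cells 7 were tested and 0 were called in either direction, and PTPRC and CD3E did not pass the filter. CD14 had 219 and 490 reads in A549 and 648 and 840 in H460, and CD68, a lysosomal protein of macrophages that other cells also make, had 863 and 624 in A549 and 1109 to 4045 elsewhere. Of 9 tested genes of endothelium and fibroblasts, 2 were higher (22.2%) and 3 were lower (33.3%), against 8.42% and 7.51% over all genes tested. VWF, KDR, and DCN had no read in A549. They were also low in the other lines, with means of at most 0.0683 TPM for VWF, 0.915 for KDR, and 0.0649 for DCN. THY1 was called higher at 32 and 23 reads and ACTA2 at 482 and 631 against 170 to 312. COL3A1, a fibrillar collagen, was not called, with 1961 and 1831 reads in A549, 4961 and 4300 in H460, and 0 and 22 in H1299.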

How the data were processed

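Total RNA of 6 cultures of established cell lines was sequenced, 1 per group, and samples were grouped by the line and treatment in their labels. After trimming, the authors mapped reads with HISAT to hg38, and StringTie gave gene abundances on an NCBI annotation. The submitters' notes name Trimmomatic, HISAT2 2.1.0, and StringTie 1.3.4b, and list hg19 as well as GRCh38. Whether strand was used in counting is not given in the sources used here, so overlapping and antisense genes are uncertain. The deposited read counts are whole numbers per gene, and the deposited TPM values are scaled by the authors for length and depth. The FPKM columns were not used, nor were 18 per-sample columns whose names match no sample analysed here.

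Counts of 46427 genes were analysed in R 4.3.3 with edgeR 4.0.16 (TMM scaling, filterByExpr with a minimum count of 10, quasi-likelihood test, Benjamini-Hochberg adjustment). The value after ± is the absolute log2 fold change divided by the square root of the quasi-likelihood F. It approximates a standard error and was not estimated by the fit itself. Alternatives used DESeq2 1.42.0, limma 3.58.1, other scalings and filters, counts thinned to the smallest library, and each library left out in turn. Folds are ratios of mean normalized CPM of the 2 A549 libraries over the other 4, with a floor of 3 reads over a group without reads and Clopper-Pearson intervals where a group had 1 to 3 reads. Depth ran from 42506818 to 68515992 reads, and intervals and floors cover counting error only. The genes named by size were those with the widest gap on log2(CPM + 0.5) between the nearest A549 library and the nearest other library. That rule was written for the main test, which called 0 genes, and was applied to the within-line calls. The line, the gene lists, and the motifs were chosen with earlier results of these data known. The scripts were tested on simulated data. Some genes and 1 of the lists are not reported here.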

Additional observations from a re-analysis of the deposited data

How the results depend on the processing

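For A549 against both lines, the main edgeR test called 0 genes. The numbers higher and lower were 1404 and 1962 with DESeq2, and 23 and 12 with a mean of at least 50 reads. They were 4522 and 3851 on cell line means, with the kind of spread described for the second test. They were 238 and 189 without the treatment covariate, and 679 and 99 with limma on log2(TPM + 1). Against H460 alone they were 4286 and 4377, and against H1299 alone 5467 and 5692. They stayed at 0 with RLE size factors, without a filter, after thinning, with limma voom and the line as a random block (correlation 0.879), and with each library left out, settings in which 939 to 3245 genes had an unadjusted p under 0.05. DESeq2 gave 210 higher and 540 lower among the controls and 229 and 554 among the si-MALAT1 libraries. The within-line counts ran from 805 to 1719 higher and 778 to 1608 lower with 1 library left out, and were 2765 and 880 with limma on log2(TPM + 1). The other alternatives kept them within 1.5 times, and no gene called in one direction was called in the other. The causes were not tested.

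Some named genes changed direction. FN1 had a log2 fold change of -0.96 over the 6 libraries and 0.65 on line means, 0.72 with voom, 3.39 against H1299 alone, from -1.51 to 1.43 with 1 library left out (1.43 without the H460 control and 0.61 without the H460 si-MALAT1 library), and 0.80 with TPM. Against H460 alone NEAT1 was at 0.13 and AKR1C1 at -0.36, and against H1299 alone KRT19 was at 2.58. Pairing by replicate number was not possible because each group holds 1 library and the labels give no replicate numbers. The control and si-MALAT1 libraries of a line are nevertheless matched by that line. Only the limma voom alternative tied the 2 libraries of a line, by the line as a random block. The main edgeR test and DESeq2's Wald test on the same design took them as independent, with treatment as a covariate.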
